A study of Sus scrofa with 20 samples.

Results

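The genes of the major plasma carrier proteins were followed in backfat and liver of the Nanchukmacdon pig, a Korean breed kept for its meat. The list named 10 proteins, ALB, GC, AHSG, FETUB, AMBP, HRG, KNG1, VTN, APOH and A1BG, and 9 of the 10 were matched to a pig Ensembl identifier among the 31907 genes of the count table. A1BG could not be matched and has no value here. RNA was sequenced from backfat and from liver of 5 boars, with 1 library for each tissue of each boar and 10 libraries in all. All samples are labelled with the title word WT, the disease state Normal and an age of 22 months, while the study's methods give another average age, and no treatment is named. Libraries were named by tissue and boar number (65, 67, 69, 71 and 72) as in the headings of the count table. The 10 bisulfite libraries of the same series carried no genomic position in the files used here and gave no value for these genes.

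Plasma carrier proteins are secreted, mainly by hepatocytes, the parenchymal cells of the liver, and hold lipids, hormones, vitamins, metals or mineral in solution in blood. Albumin (ALB) is the most abundant protein of plasma and carries fatty acids. GC, the vitamin D binding protein, belongs to the same family as albumin. AHSG (fetuin-A), FETUB (fetuin-B), HRG (histidine-rich glycoprotein) and KNG1 (kininogen, from which bradykinin is cut) all contain cystatin-type domains and share 1 stretch of chromosome. AMBP is a precursor that is cleaved into alpha-1-microglobulin, a haem-binding lipocalin, and bikunin, a protease inhibitor. APOH (beta-2-glycoprotein I) binds anionic phospholipids, and VTN (vitronectin) binds integrins and supports the attachment of cells. Backfat is the subcutaneous adipose tissue of the back and consists mainly of adipocytes with connective tissue and vessels.

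The positions below are those of the RefSeq annotation on Sscrofa11.1, the build to which the reads had been mapped. ALB (ENSSSCG00000008948) lies at chr8:69643427-69663152 on the plus strand, and GC (ENSSSCG00000027609) lies at chr8:68326293-68360262 on the minus strand. The span of GC overlaps that of a long non-coding RNA on the opposite strand, and whether their exons overlap was not checked. Unless strand was used in counting, reads from any shared exon bases cannot be told apart. AHSG (ENSSSCG00000011799) at chr13:124426313-124438848, FETUB (ENSSSCG00000011800) at chr13:124480456-124494197, HRG (ENSSSCG00000011801) at chr13:124505305-124516387 and KNG1 (ENSSSCG00000011802) at chr13:124521276-124557384 follow one another on the plus strand within 131.072 kb. AMBP (ENSSSCG00000005485) lies at chr1:254683885-254703220, VTN (ENSSSCG00000027801) at chr12:44650532-44653916 and APOH (ENSSSCG00000040910) at chr12:12827195-12839172, all on the minus strand. A1BG is annotated at chr6:62935419-62939622.

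The 250 bases before the annotated start were read from the reference genome for ALB and GC, which belong to 1 protein family, and for VTN, the listed gene with the most counts in 4 of the 5 backfat libraries. Each is written 5′ to 3′ on the strand of its gene. The capitals mark TTGGCA, a short NF1 motif, in ALB and, in GC, TTTATA, the reverse complement of the TATA motif TATAAA.
ALB, chr8:69643177-69643426, plus strand: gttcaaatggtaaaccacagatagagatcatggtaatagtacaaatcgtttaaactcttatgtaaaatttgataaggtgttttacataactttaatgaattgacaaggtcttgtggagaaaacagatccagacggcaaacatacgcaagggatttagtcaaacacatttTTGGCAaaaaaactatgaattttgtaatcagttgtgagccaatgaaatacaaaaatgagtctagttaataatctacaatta
GC, chr8:68360263-68360512, minus strand: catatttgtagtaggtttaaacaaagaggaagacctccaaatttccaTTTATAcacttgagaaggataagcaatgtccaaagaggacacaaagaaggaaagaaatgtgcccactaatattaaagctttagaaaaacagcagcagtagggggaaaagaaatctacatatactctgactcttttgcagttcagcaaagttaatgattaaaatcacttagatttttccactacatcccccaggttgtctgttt
VTN, chr12:44653917-44654166, minus strand: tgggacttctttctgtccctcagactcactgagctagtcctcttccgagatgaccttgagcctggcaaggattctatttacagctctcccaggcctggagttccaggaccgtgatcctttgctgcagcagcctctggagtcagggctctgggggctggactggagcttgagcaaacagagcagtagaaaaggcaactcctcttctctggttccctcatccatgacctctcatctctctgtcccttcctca
Motifs were searched on both strands without a mismatch. The HNF4 motif CAAAGTCCA and the CEBP motif TTGCGCAA were found in 0 of the 10 windows, against 0.317% and 0.164% of all promoters. At such low shares 0 of 10 does not set these genes apart, and sites with a mismatch were not searched. TATAAA was found in 1 of the 10, against 9.77% of all, and TTGGCA in 2 of the 10, ALB and FETUB, against 9.86%. It stood between -81 and -76 bases from the start of ALB and between -21 and -16 from that of FETUB, and the TATA match between -203 and -198 from the start of GC. The VTN window held none of the 4 motifs. The windows of the 10 genes held between 0 CpG dinucleotides (GC) and 6 (FETUB), where the median over all promoters was 12. A match is a description of letters and does not show that a factor binds there.

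The libraries held between 43820042 and 61772737 counts. The tissue labels were checked with marker genes other than the members. All 7 measured adipocyte markers were called higher in backfat, and all 16 measured hepatocyte markers were called higher in liver. CPM, the unit of level used here, are counts scaled to 1e6 counts of a library after TMM normalization across the 10 libraries. The summed level of the hepatocyte markers was between 20.3 and 24.0 CPM in backfat 65, 67, 71 and 72 and 114 CPM in backfat 69, against 28068 to 82334 CPM in liver. Without the markers CYP2E1 and CYP7A1 the sum was 6.51 to 8.10 CPM in backfat 65, 67, 71 and 72. It was then 93.0 CPM in backfat 69 and 27450 to 80063 CPM in liver. Backfat 69 stood apart from the other backfat libraries in these markers, and all of its 16 hepatocyte markers had counts, while between 2 and 4 of them were at 0 in each other backfat library. Among the liver libraries, liver 67 stood apart with the lowest hepatocyte marker sum, with 44.5% of its counts in the 13 protein-coding mitochondrial genes, 158.6 CPM of skeletal muscle markers against 0.379 to 1.22 in the other livers, and 1778 CPM of red cell markers against 71.7 to 374. Results that rest on backfat 69 are given below also without it, and the spread over the livers also without liver 67.

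The plasma carrier proteins were liver genes in these boars, with levels in liver between 643 and 46626 CPM and levels in backfat between 0 and 36.4 CPM. Every liver library was above every backfat library for 9 of the 9 genes, as it was for 19.7% of the 16275 genes tested. Genes were called where the FDR was 0.05 or less and the log2 fold change reached 2 in either direction. All 9 were called higher in liver, where 11.2% of the tested genes were called in that direction. The calls over all genes split into 1819 towards liver and 1814 towards backfat, and into 1340 and 2874 with library size alone as the scaling, under which the 9 genes were also called. The log2 fold changes, as backfat over liver, ran from -12.30 for APOH to -10.71 for VTN with a median of -11.67, against a median over all tested genes of 0.000140. For 8 of the 9, VTN being the exception, at least 1 backfat library was below the level that the filter on low counts asks for, so those genes were tested because of their liver counts. In bulk tissue, fewer cells of a type and less RNA per cell cannot be told apart. The fold changes of all 9 depended on backfat 69, as described for each gene below.

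**Figure D1:**
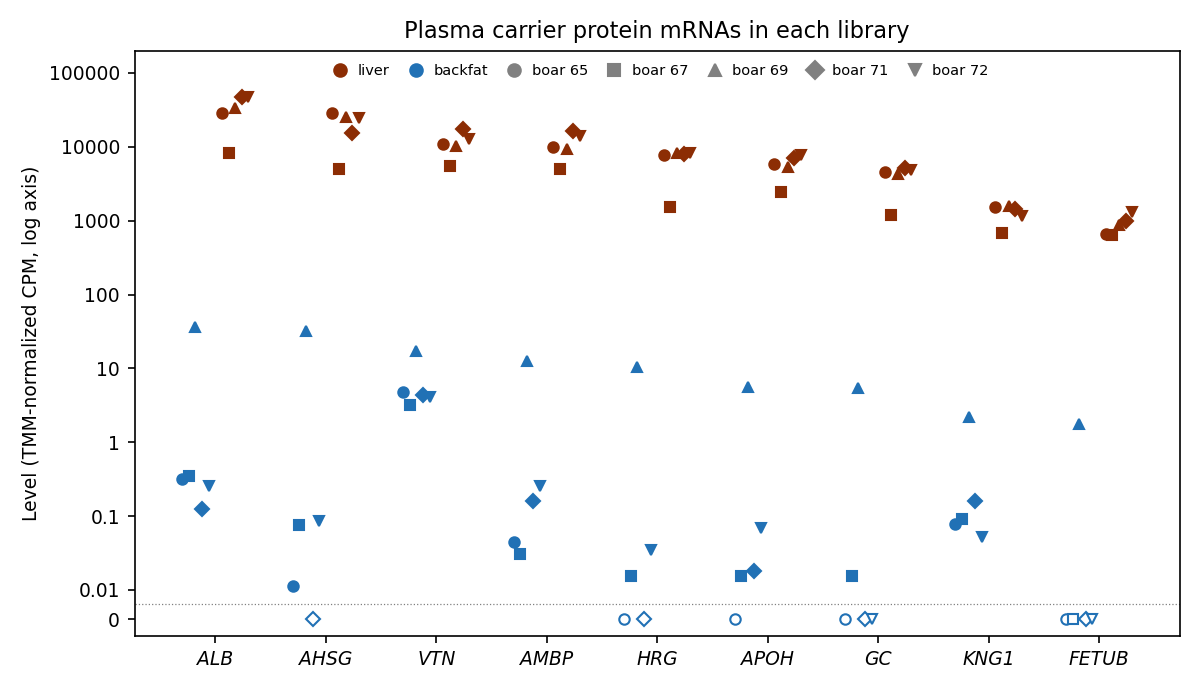
Level of each of the 9 genes in each library, in TMM-normalized CPM on a log axis, with 1 point per library and a symbol for each boar. The liver points lie between 643 and 46626 CPM, the highest backfat point of every gene is backfat 69, and libraries with 0 counts are drawn at the bottom of the axis.

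ALB was at 29088, 8202, 33227, 46626 and 46607 CPM in liver 65, 67, 69, 71 and 72, and at 0.316, 0.351, 36.4, 0.126 and 0.257 CPM in backfat of the same boars. Its lowest liver level, in liver 67, was far above its highest backfat level, in backfat 69. The fitted log2 fold change of -12.10 had a standard error of 2.17 (FDR = 0.000446), and it was -16.89 without backfat 69. Over the 4 other backfat libraries ALB had 73 counts in all, and its mean liver level was 120226 times the pooled level there (95% interval from counting error alone, 95619 to 153381).

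GC, the carrier of vitamin D, was at 4544, 1190, 4274, 5223 and 4863 CPM in liver in the same order of boars. In backfat it had 0, 1, 319, 0 and 0 counts, so that 319 of its 320 backfat counts were in backfat 69. The log2 fold change of -11.87 (standard error 2.15, FDR = 0.00049) became -19.31 without that library, a value that rests on 1 count in backfat.

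The fetuins differed in level. AHSG, which binds calcium phosphate mineral in plasma, was at 28550, 5069, 25348, 15543 and 24308 CPM in liver and at 0.0113, 0.0763, 32.2, 0 and 0.0858 CPM in backfat. Its backfat counts other than those of backfat 69 were 11 in all. On the log2 scale its fold change was -11.58, with the largest standard error of the 9 genes (2.52, FDR = 0.00183), and it was -18.76 without backfat 69. FETUB, an inhibitor of the egg protease ovastacin, was at 665, 643, 873, 984 and 1292 CPM in liver and had 0 counts in every backfat library but backfat 69, where it had 105 (1.77 CPM). With backfat 69 the fold change on the log2 scale was -11.32 (standard error 1.63, FDR = 7.74e-05). A total of 0 counts allows up to 3, and against 3 counts over the 4 other backfat libraries FETUB was at least 79623-fold higher in liver than in those 4 libraries, a limit that covers counting error only.

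HRG, which binds heparin, plasminogen and zinc, was at 7859, 1513, 8245, 7981 and 8185 CPM in liver. The level of liver 67 was below the other 4, which lay close together. In backfat HRG had 0, 1, 616, 0 and 2 counts, and on the log2 scale its fold change was -11.67 with backfat 69 (standard error 2.31, FDR = 0.000938) and -18.90 without it. KNG1, the last gene of the chromosome 13 group, was at 1542, 688, 1559, 1440 and 1172 CPM in liver and at 0.0790, 0.0915, 2.17, 0.162 and 0.0515 CPM in backfat. Every backfat library held KNG1 counts, 25 in all outside backfat 69. Its fold change on the log2 scale was -11.30 (standard error 1.24, FDR = 7.89e-06) and -13.68 without backfat 69, and its mean liver level was 13724 times the pooled level of the other 4 (95% counting interval 9297 to 21206).

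AMBP was at 10020, 5071, 9421, 16399 and 13864 CPM in liver and at 0.0451, 0.0305, 12.5, 0.162 and 0.257 CPM in backfat. The corresponding log2 value was -12.05 (standard error 2.01, FDR = 0.000251), or -16.46 without backfat 69. APOH was at 5909, 2413, 5263, 7167 and 7770 CPM in liver and at 0, 0.0153, 5.55, 0.0180 and 0.0686 CPM in backfat, where 330 of its counts were in backfat 69 and 6 in the other 4 libraries. Its log2 value of -12.30 (standard error 2.06, FDR = 0.000259) was the largest of the 9 in size with all libraries. Without backfat 69 it was -17.77, smaller in size than those of GC, HRG, AHSG and FETUB. That order rests on few backfat counts or none, and was not tested.

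VTN had the highest level of the 9 genes in 4 of the 5 backfat libraries. It was at 4.74, 3.17, 17.4, 4.4 and 4.1 CPM in backfat 65, 67, 69, 71 and 72, from 420, 208, 1034, 244 and 239 counts, and at 10771, 5427, 10180, 17390 and 12912 CPM in liver. The 4 backfat libraries other than backfat 69 lay within 3.17 and 4.74 CPM (4.10 ± 0.672, SD, n = 4), and their pooled level was below the mean liver level by a factor of 2734 (95% counting interval 2578 to 2903). Its log2 fold change of -10.71 (standard error 0.84, FDR = 4.05e-07) was the smallest of the 9 in size and moved least without backfat 69, to -11.43. VTN is also the 1 gene of the 9 with at least 10 counts in every library.

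**Figure D2:**
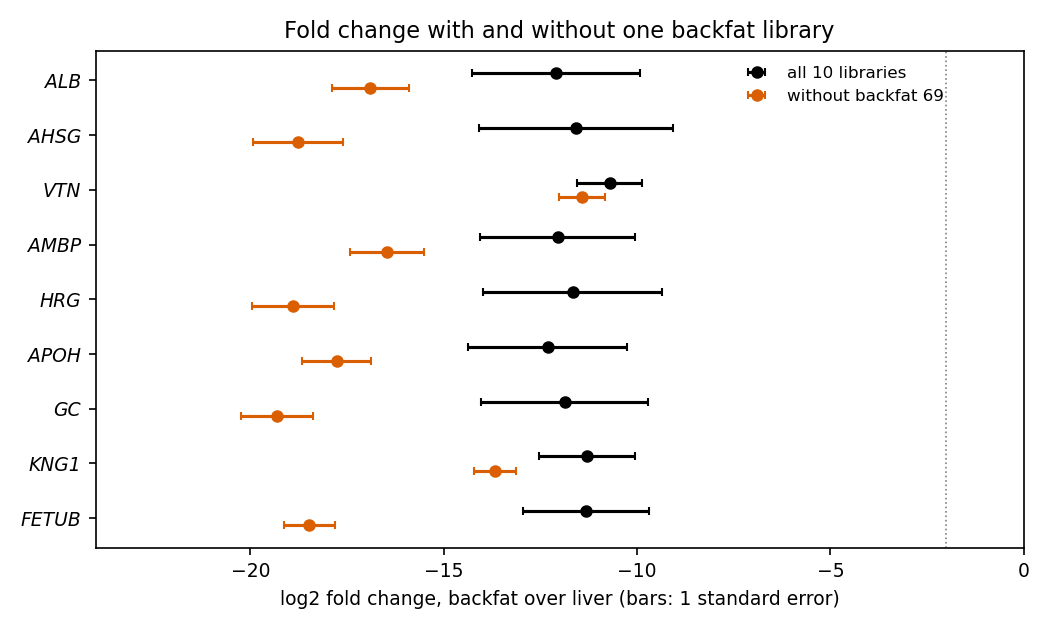
Log2 fold change of each gene, backfat over liver, with its standard error, from all 10 libraries and again without backfat 69. All values lie below 0. Without backfat 69 they run from -19.31 (GC) to -11.43 (VTN), and that of FETUB, which then has 0 counts in backfat, depends on the prior count of the fit and is no bound.

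The members made up a different mixture in the 2 tissues. In liver ALB gave between 27.1% and 39.3% of the counts of the 9 genes, AHSG between 13.1% and 28.9%, and VTN between 10.3% and 18.0%. In backfat 65, 67, 71 and 72 VTN gave 91.3%, 84.2%, 90.4% and 84.5% and ALB between 2.59% and 9.31%. In backfat 69, VTN gave 14.1% and ALB 29.4%. Thus the shares of ALB, GC, AHSG, FETUB, AMBP, KNG1 and VTN in backfat 69 lay within the range of the 5 liver libraries, APOH at 4.49% lay below the liver range of 5.35% to 7.99%, and HRG at 8.38% was at the top of its liver range. Per 100 ALB counts there were between 27.7 and 66.2 VTN counts in liver, 47.8 in backfat 69 and between 904 and 3486 in the other 4 backfat libraries.

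**Figure D3:**
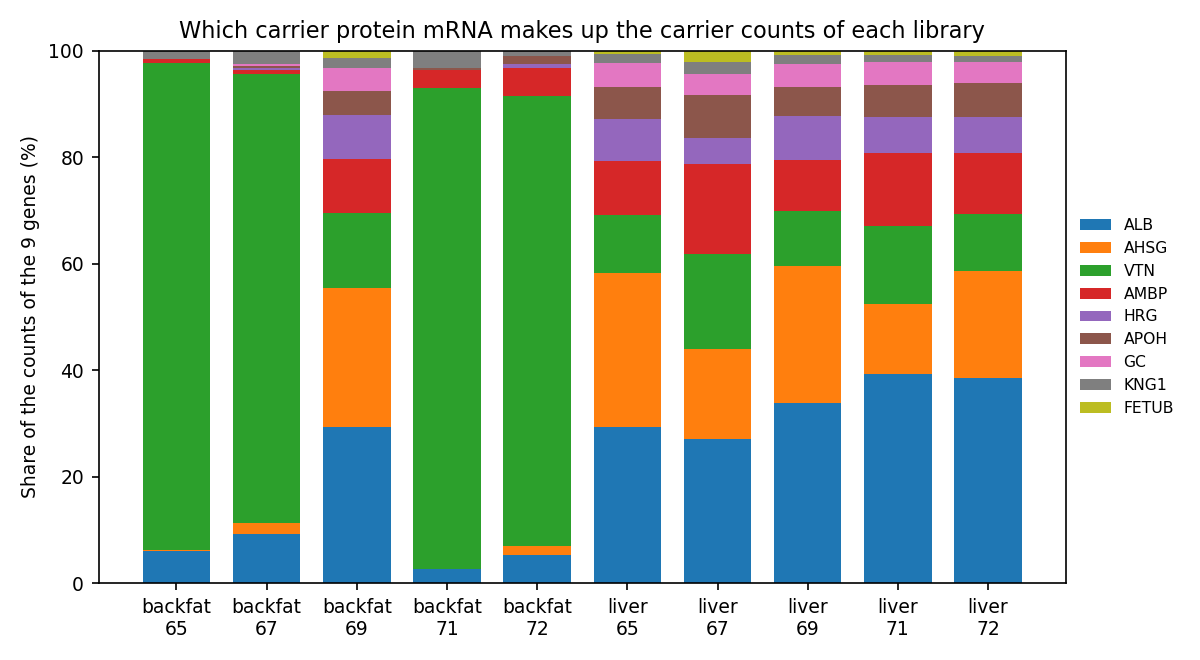
Share of each gene among the summed counts of the 9 genes in each library, as stacked bars in percent. VTN fills 84.2% to 91.3% of the bar in backfat 65, 67, 71 and 72, while the bar of backfat 69 has 14.1% VTN and 29.4% ALB and lies close to the bars of liver.

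Backfat 69 held each member at between 0.0973% (APOH) and 0.198% (FETUB) of its mean liver level, with a median of 0.153%. The 16 hepatocyte markers that are no members stood at a median of 0.149% of their mean liver level in the same library, with a range of 0.0439% to 5.97%, the highest being CYP7A1 and CYP2E1, at 5.97% and 1.04%. In the other 4 backfat libraries the members were at a median of 0.000392% and a highest value of 0.0366% (VTN), and the markers at a median of 0.0182%. Each member and each marker was higher in backfat 69 than in the other 4 backfat libraries pooled, by unequal amounts. As percent of the mean liver level, APOC3 was at 0.0999% in backfat 69 against 0.000114% in the other 4. VTN was at 0.153% against 0.0366%, and CYP7A1 at 5.97% against 4.37%. What part the markers' cells have in the members' levels was not tested.

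In liver the 9 genes together took 9.06%, 2.18%, 8.62%, 7.70% and 9.19% of all counts in liver 65, 67, 69, 71 and 72. With the mitochondrial genes left out of the total, the shares were 9.73%, 3.93%, 9.21%, 9.65% and 10.4%. Liver 67 was the lowest on either total. In backfat the same sum was between 0.000515% and 0.000745% of counts in 4 libraries and 0.0152% in backfat 69.

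All 9 genes had their lowest liver level in liver 67. The level there was between 0.188 (HRG) and 0.674 (FETUB) of the mean of the other 4 livers, with a median of 0.370. The median of the same ratio was 0.381 over the hepatocyte markers, 0.737 over the 1486 tested genes with a mean liver level of at least 100 CPM and 0.984 over all tested genes. The mitochondrial, muscle and red cell values that set liver 67 apart are given above, and their part in the members' low levels was not tested. The highest liver level fell in liver 71 for 4 genes, in liver 69 and liver 72 for 2 each and in liver 65 for 1. Over the 5 livers the coefficient of variation was largest for ALB (48.3%) and AHSG (48.2%) and smallest for FETUB (29.8%) and KNG1 (28.5%), with a median of 39.8% against 29.5% for the 1486 genes. This order rested on liver 67. Without it FETUB had the largest value (27.4%) and HRG the smallest (2.22%, from 43.4%), ALB and AHSG were at 23.4% and 23.7%, and the median was 23.4% against 19.0% for the 1486 genes.

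To compare levels between genes, counts were divided by gene length and scaled to the same total in each library (transcripts per 1e6, TPM). With the exon lengths of the count table, the order in liver was AHSG at 16489 ± 11244 TPM (SD, n = 5), ALB at 9364 ± 4572, APOH at 7284 ± 3274, VTN at 5979 ± 2352, HRG at 5670 ± 3246, AMBP at 4744 ± 1869, GC at 1143 ± 585, FETUB at 1009 ± 379 and KNG1 at 558 ± 298. The ranges of each pair of neighbours over the 5 livers overlapped. For AMBP and GC alone the overlap came from liver 67, where AMBP was at 1457 TPM. In the other livers AMBP was at 5066 to 5992 TPM, against a highest GC level of 1693 TPM. The order of neighbours was the same in 5 of 5 livers for AMBP above GC and for FETUB above KNG1, in 4 of 5 for AHSG above ALB, ALB above APOH and APOH above VTN, and in 3 of 5 for VTN above HRG, HRG above AMBP and GC above FETUB. Among all genes of the table AHSG ranked 7 and ALB 19 by mean liver TPM, and 8 of the 9 were among the first 100, KNG1 being at 132.

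The order depended on the length used. The exon lengths of ALB, GC and VTN in the table were 5319, 5496 and 2821 bases, where their longest RefSeq transcripts had 2734, 1792 and 1512 bases. With the RefSeq lengths ALB came first at 17871 ± 8692 TPM (SD, n = 5), AHSG followed at 16142 ± 10974, and VTN was next at 10948 ± 4274. GC rose to 3437 ± 1750 TPM, above FETUB in 5 of 5 livers. The RefSeq lengths were tried after the data were seen.

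**Figure D4:**
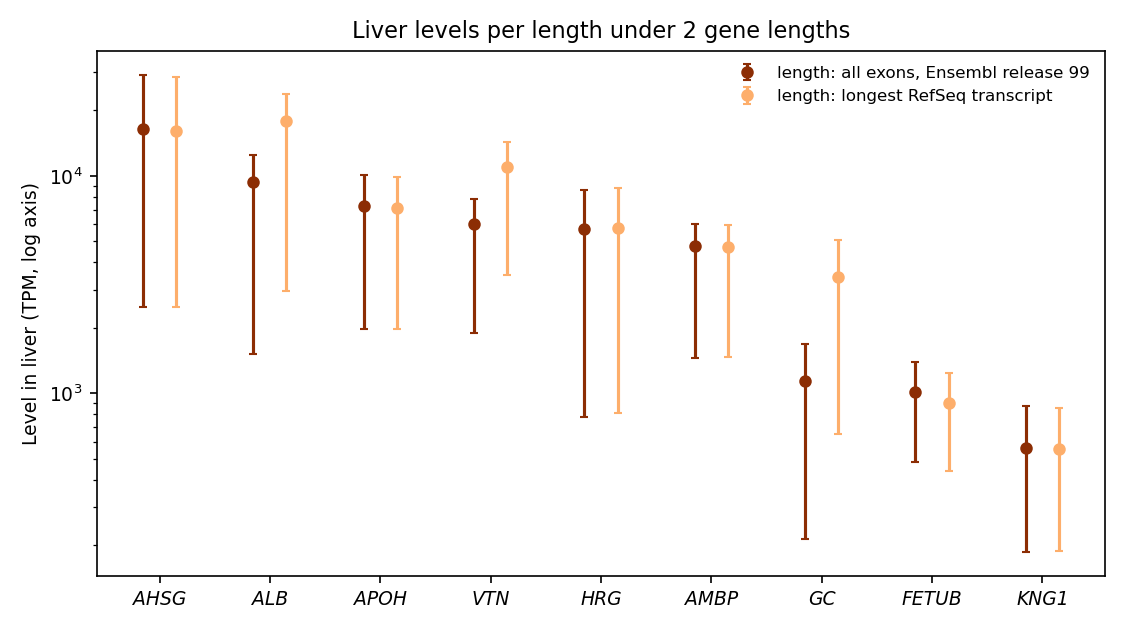
Liver level of the 9 genes in TPM on a log axis, as the mean over the livers. Bars run from the lowest to the highest library, for the exon lengths of the count table and for the longest RefSeq transcripts. AHSG leads with the former (16489 TPM) and ALB with the latter (17871 TPM), and KNG1 is last with both.

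Near the 4 genes on chromosome 13, but not next to them, lies a gene with the opposite pattern. ADIPOQ, which codes for the adipocyte hormone adiponectin, starts 76.5 kb beyond the end of KNG1 and had 3608 ± 1100 CPM in backfat (SD, n = 5) against 0.0344 ± 0.0316 in liver, a log2 fold change of 16.52 (FDR = 9.59e-09). Between them lie EIF4A2, a translation initiation factor, at 441 ± 83.1 CPM in backfat and 330.2 ± 50.7 in liver (log2 fold change 0.42, FDR = 0.109), and RFC4, a subunit of a DNA clamp loader, at 10.4 ± 1.91 and 14.3 ± 2.62 CPM (log2 fold change -0.46, FDR = 0.0535). Neither was called. These 3 genes were chosen for their position after their values had been seen. On chromosome 8 the albumin family gene AFP starts 14.5 kb beyond ALB and AFM 7.96 kb beyond AFP, while GC lies 1283 kb away. AFM was at 600.3 ± 212 CPM in liver and had 0 counts in backfat outside backfat 69. AFP, the fetal member of the family, was at 4.85 ± 3.02 CPM in liver and had 0 counts in every backfat library. It was likewise picked for its position.

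**Figure D5:**
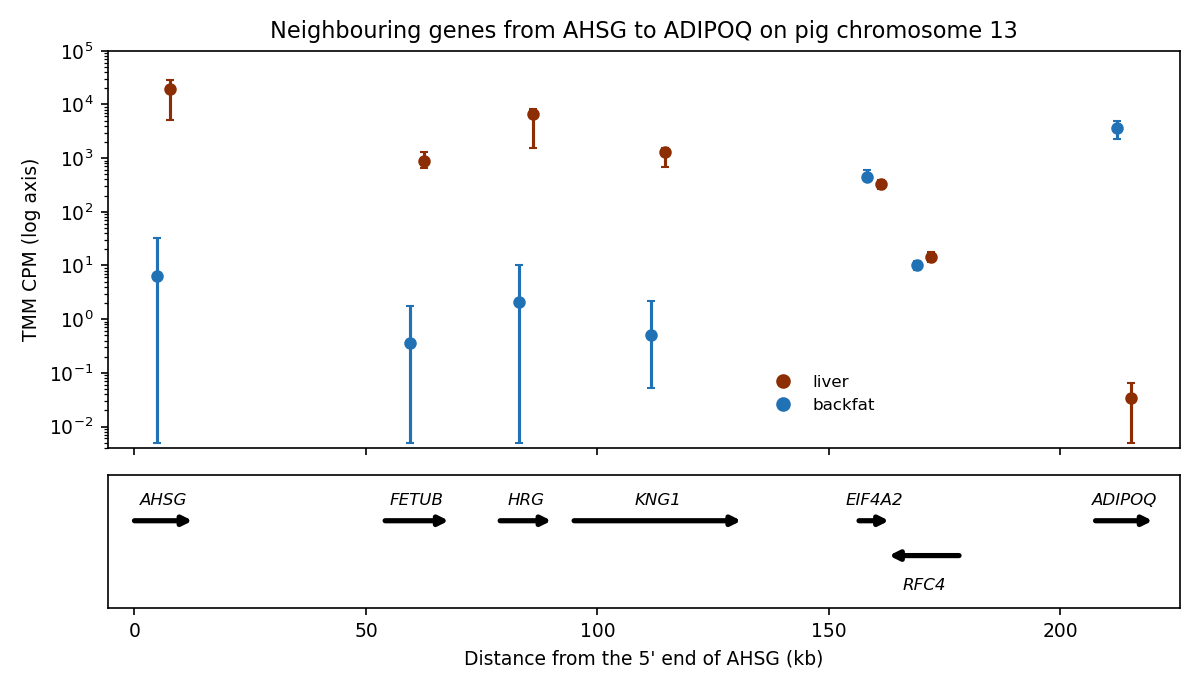
Mean CPM in backfat and in liver, on a log axis, of the genes from AHSG to ADIPOQ against their distance in kb from the start of AHSG, with bars from the lowest to the highest library and a lowest value of 0 drawn to the bottom of the axis. AHSG, FETUB, HRG and KNG1 are higher in liver, EIF4A2 and RFC4 are close in both tissues, and ADIPOQ is higher in backfat.

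The receptors, proteases, enzymes and other binding partners with which these proteins are known to act were taken as a list of partner genes. Of 32 such genes 30 were in the count table and 27 were tested, and 13 were called higher in liver, 3 higher in backfat and 11 in neither direction, with a median log2 fold change of -0.61. The share of all tested genes called towards liver was 11.2% and that called towards backfat 11.1%, and the share of partners called towards backfat was close to the latter. The counts and the median are over a mixed list, in which plasma proteins such as F11 and PLG stand beside receptors and enzymes of cells. These kinds of partners were not counted apart. Those called higher in liver with the largest fold changes were F11, a clotting factor that circulates bound to kininogen, at 179.5 ± 54.9 CPM in liver and 0.0471 ± 0.105 in backfat (SD, n = 5; log2 fold change -11.92, FDR = 2.31e-07), PLG, the plasminogen that HRG binds (-11.57, FDR = 3.1e-05, and -14.29 without backfat 69), and CPN2, a subunit of the carboxypeptidase that trims kinins (-11.55, FDR = 3.35e-07). Outside backfat 69, F11 and CPN2 had 0 counts in backfat. KLKB1, the kallikrein that cuts kininogen, was at 413 ± 181 CPM in liver and 0.594 ± 0.330 in backfat (log2 fold change -9.44, FDR = 1.26e-07).

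The partners called higher in backfat were ACE, BDKRB2 and CUBN. ACE, an enzyme that breaks down bradykinin, was at 70.6, 89.1, 75.7, 54.3 and 73.0 CPM in backfat and between 4.19 and 10.3 CPM in liver, and the groups did not overlap (log2 fold change 3.46, standard error 0.25, FDR = 1.9e-07). BDKRB2, a bradykinin receptor, was at 1.57 to 5.28 CPM in backfat and 0.0849 to 1.16 in liver (log2 fold change 3.32, standard error 0.67, FDR = 0.00108). Its highest liver level was in liver 67, without which the log2 fold change was 4.39, and the call was lost in edgeR's glmTreat, a test against the fold threshold (FDR = 0.0531). CUBN, a receptor that takes up albumin and the vitamin D binding protein in kidney, was near 1 CPM in backfat (0.652 to 1.15) and at 0.0316 to 0.351 CPM in liver. Its log2 fold change of 2.04 (FDR = 0.00254) was just past the threshold of 2 and fell short of it without backfat 65 (1.99), liver 69 (1.99) or liver 71 (1.75). The call of CUBN was also lost in glmTreat (FDR = 0.998).

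Other receptors were not called. FCGRT, the receptor that returns albumin from endosomes to plasma, was at 355 ± 48.3 CPM in backfat and 256 ± 72.7 in liver (SD, n = 5), a log2 fold change of 0.47 with a 95% interval of -0.07 to 1.01 (FDR = 0.107). The integrin subunits ITGB3 and ITGB5, through which cells bind vitronectin, had log2 fold changes of -0.61 (FDR = 0.136) and -0.00 (95% interval -0.46 to 0.45, FDR = 0.988), and with library size alone as the scaling both were above 0, at 0.018 and 0.72. Other vitronectin receptors of the list were higher in backfat but short of the fold threshold, with log2 fold changes of 1.29 for ITGAV (FDR = 0.00352), 1.58 for ITGB1 (FDR = 0.00066) and 1.62 for PLAUR (FDR = 0.00016). With library size alone ITGB1 and PLAUR were past it, at 2.24 and 2.31, and these 3 were added after their values had been seen. LRP2, the partner of CUBN, was at 0.433 to 0.812 CPM in backfat. In liver it was at 0 to 0.158 CPM in 4 libraries and 0.678 CPM in liver 72. Its log2 fold change of 1.78 (FDR = 0.0835) was not called, while it was 3.44 (FDR = 0.00174) without liver 72 and 2.59 (FDR = 0.0326) with the boar as a block.

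Other carriers of plasma, taken from a list made with earlier results of these data known, were higher in liver like the members. TF, HPX and TTR of this list are also among the hepatocyte markers used above. All 10 of the 10 measured were called in that direction, as were 11.2% of all tested genes, with a median log2 fold change of -11.06. They reached from AFM, a carrier of vitamin E (-13.30), SERPINA7, a thyroxine carrier (-13.07), and TTR, another thyroxine carrier (-12.15, and -15.47 without backfat 69), to APOA1, the main protein of high-density lipoprotein (-5.89), and RBP4, the retinol carrier (-4.32). RBP4 at 116 ± 39.9 CPM and APOA1 at 246 ± 133 CPM (SD, n = 5) had mean levels in backfat above that of any member. Outside backfat 69, AFM and SERPINA7 had 0 counts in backfat. RBP4 and APOA1, the carriers with the smallest fold changes, were picked after their values had been seen.

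Of 11 liver-enriched transcription factors, all tested, 8 were called higher in liver (11.2% of all tested genes), 0 higher in backfat (11.1% of all) and 3 in neither direction, with a median log2 fold change of -6.30. FOXA2 had 0 counts in all 5 backfat libraries and was at 33.6 ± 12.7 CPM in liver (SD, n = 5), at least 3668-fold higher in liver than a floor of 3 counts over the backfat group. HNF4A was at 439 ± 109 CPM in liver and 0.594 ± 0.423 in backfat (log2 fold change -9.52, FDR = 4.71e-08). ONECUT1 and FOXA1 had log2 fold changes of -11.16 and -10.21, or -12.90 and -11.96 without backfat 69. CEBPA, which acts in both hepatocytes and adipocytes, was at 179 to 490 CPM in backfat and 25.3 to 193 CPM in liver, with its lowest level in liver 67. The groups overlapped, and its log2 fold change of 1.36 (FDR = 0.0195) was below the fold threshold. It was past it, at 2.03, with library size alone as the scaling.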

How the data were processed

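RNA-seq reads of 5 backfat and 5 liver libraries had been mapped by the authors with HISAT2 to Sscrofa11.1 and counted with featureCounts 2.0.1 on Ensembl release 99, and the deposited values are raw read counts per gene, with the exon length of each gene beside them. Bisulfite files were not used. The tissues were compared with edgeR 4.0.16 under R 4.3.3 (filterByExpr, TMM, glmQLFit and glmQLFTest, tissue as the only term, Benjamini-Hochberg adjustment over 16275 genes). FDR values are from this test on all 10 libraries unless glmTreat, the boar as a block or the loss of a library is named. The alternative fits also used limma 3.58.1 (voom) and DESeq2 1.42.0. Standard errors were derived from the fold change and F. Boar numbers come from the table's headings, and the labels do not say which replicate is which boar. Deviations of the 2 libraries of a boar from their tissue means correlated at 0.0270 to 0.220. Of 132 listed symbols, 111 matched an identifier. The genes named were all members, the 3 largest called fold changes per list and direction, and 8 fixed names, with further genes where the text says that they were picked after their values were seen. Some listed genes are not reported here. RefSeq release 106 gave positions and promoters. Members and lists were chosen with earlier results of these data known. The fits were tested on simulated counts.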

Additional observations from a re-analysis of the deposited data

Results flagged for a closer look

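In 22 of 55 groups of 5 libraries, 1 library stood further from the others than Dixon's 95% limit (a gap of 0.71 of the range). For normally distributed values chance does this for about 1 group in 20. Low counts, many of them 0, need not follow that rate. Of the 22 groups, 17 were in backfat 69, including all 9 members, and genes measured in 1 library are not independent. In backfat 69 the highest values were ALB at 36.4 CPM, AHSG at 32.2, VTN at 17.4, AMBP at 12.5, HRG at 10.4, APOH at 5.55, GC at 5.37, KNG1 at 2.17 and FETUB at 1.77. The other liver genes that stood apart there were TTR at 6.11 CPM, PLG at 3.82, AFM at 0.303, CPN2 at 0.269, F11 at 0.235, FOXA1 at 0.135, ONECUT1 at 0.135 and SERPINA7 at 0.0841, the last 5 of them from few counts. In liver 67, GC at 1190 CPM and HRG at 1513 CPM were lower than in the other livers, and BDKRB2 at 1.16 CPM was higher. CUBN at 0.652 CPM was lower in backfat 72 than in the other backfat libraries, and LRP2 at 0.678 CPM was higher in liver 72 than in the other livers. The causes were not tested.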

How the results depend on the processing

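The 9 members stayed called higher in liver under DESeq2's size factors, library size alone, DESeq2, limma-voom, glmTreat (a test against the fold threshold), no filter, removal of the mitochondrial genes, the boar as a replicate block and the loss of any 1 library (9 to 9). Asking for at least 10 counts in every library left 1 member tested and called, VTN. All genes called numbered 3633, and 4214 with library size alone, 4899 with DESeq2 and 5247 with no filter. They numbered 2413 with glmTreat, 1852 with at least 10 counts in every library and 3716 to 3964 with 1 library left out. Partners higher in liver numbered 13, and 10 with library size alone, 10 with glmTreat and 7 with that filter. With 1 library left out they numbered 12 to 13. Partners higher in backfat numbered 3, and 7 with library size alone, 1 with glmTreat and 1 with that filter (2 to 4 with 1 library left out). Against the order by exon length, 2 of 9 genes kept their rank in CPM without length and 5 of 9 with RefSeq lengths. Library size alone shifted the median of all genes by 0.71 (log2).

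The size of the members' fold changes was less stable than their direction. With the boar as a replicate block, which pairs the tissues of 1 animal, the log2 values ran from -17.18 (AHSG) to -10.96 (VTN), with limma-voom from -17.04 to -10.95, and without backfat 69 from -19.31 to -11.43. That block left 9 members and 3670 genes called, with 12 partners higher in liver and 4 in backfat. Values that changed sign were those of ITGB3 (0.018), ITGB5 (0.72) and RFC4 (0.25) with library size alone, and ITGB5 without a filter (0.055) and with 1 library left out (-0.086 to 0.12). The causes were not tested. Few counts limit the backfat levels: 4 members had under 10 counts over 4 libraries.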
